A study of Homo sapiens with 3 samples.

Results

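The 42 genes described here build the machine that separates chromosomes and divides the cell. They are mitotic kinesins, spindle proteins, cytokinesis proteins, condensin subunits and a few chromosome and proliferation genes. They were taken by symbol from the table of 58039 genes, all 42 symbols were found, and all 42 had a mean level of at least 1 FPKM, the limit for testing, which 13112 genes reached. FPKM are fragment numbers divided by transcript length and library size, so levels of different genes are compared per length. The members fall into 12 motors, 11 spindle proteins, 6 cytokinesis proteins, 7 condensin subunits and 6 other genes.

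The libraries come from T47D, a human breast cancer cell line that expresses the estrogen receptor. In the knockdown group, 1 library was made from cells with shRNA1 and 1 from cells with shRNA2, both short hairpin RNAs against the long noncoding RNA ERINA. The control is 1 library, described in its labels both as a control hairpin and as having no shRNA. Per the labels, vectors were packaged into lentivirus with psPAX2 and Pmd2G, cells were infected in polybrene and stable cells were kept by puromycin selection; whether each line is a pool or a clone is not stated, and neither is any culture time. No hairpin and no control has a repeat library, so the only spread behind the p-values is that between the 2 hairpin libraries. The control is assumed to vary like them. Limma shares this spread across genes, so the p-value of a gene also depends on which other genes are in the fit.

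As background, kinesins are motors that walk along microtubules or take them apart, and the mitotic ones set up the bipolar spindle, move chromosomes and build the midzone where the cell will divide. Condensins are ring-shaped ATPases that fold chromatin into compact mitotic chromosomes. Many of the genes are transcribed mainly in the G2 and M phases, under the MuvB complex with B-MYB and FOXM1, which binds the cell cycle genes homology region (CHR) near their starts; in breast tumours their shared level is a common measure of proliferation.

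The total was 860240 FPKM with shRNA1, 808451 with shRNA2 and 790290 in the control, and the depth estimated from genes that held a single fragment was 34100000, 34700000 and 33400000 fragments. ERINA, matched to LINC00992 through its RefSeq synonym, was at 5.21 FPKM with shRNA1 and 8.91 FPKM with shRNA2, against 63.4 FPKM in the control. All 9 luminal epithelial markers were present, the lowest being ESR1 at 16.5 FPKM. Of 3 endothelial markers the highest value was 0.0259 FPKM. Of 4 immune, 5 stromal and 3 basal markers the highest was COL1A1 at 5.16 FPKM in the control, CD3E and COL3A1 were at 0 in each library, and the highest summed level of those lists was 5.32 FPKM, of the stromal list in the control. Every member had the deposited status OK in each library.

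All 42 members were lower with both hairpins than in the control, where 42.6% of the 13112 tested genes were. Their median change was -0.75 on the scale of log2(FPKM + 0.5), beside 0.00053 over all tested genes, and it was -0.85 with shRNA1 and -0.61 with shRNA2. Summed over the members, the level was 1111 FPKM with shRNA1 and 1303 FPKM with shRNA2, against 1951 FPKM in the control, which is 57.0% and 66.8% of it. The single changes ran from -1.84 for ANLN to -0.29 for NCAPG2. In bulk libraries, fewer cells in G2 and M phase and less of these transcripts per cell cannot be told apart.

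By limma with Benjamini-Hochberg adjustment over all genes, 0 of the 42 passed 0.05 lower and 0 passed higher, where 0.267% of tested genes passed lower and 0.0839% higher. ERINA itself did not pass in this fit either, with a log2 change of -3.12 and a limma adjusted p of 0.0816. The adjusted p (limma, Benjamini-Hochberg) ran from 0.0813 for KIF2C to 0.240 for NCAPG2, and 40 members, all but NCAPG2 and KIF18A, were lower at an unadjusted p under 0.05, beside 15.9% of all tested genes. When protein-coding genes were tested alone, limma called 36 members lower and 0 higher, beside 11.3% and 7.11% of the 11546 protein-coding genes. The 6 that did not pass there were HMMR, CKAP5, ECT2, KIF18A, CKAP2L and NCAPG2, at Benjamini-Hochberg adjusted p of 0.0512 to 0.187 in limma. With limma's robust option over all genes 19 members passed lower, beside 4.54% of those genes. After setting each library to an equal total 2 did, ANLN and KIF2C, beside 0.847%. All 42 were lower in each of these fits, which is no check of the direction. The gene set and the robust option leave each change as it is, and the equal total lowers those of the members.

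By size, 22 members were at least 1.5-fold lower with both hairpins, beside 7.21% of tested genes, and 5 were at least 2-fold lower with both, beside 1.99%. Those 5 were ANLN, KIF20A, CDCA5, KIFC1 and KIF2C. The deposited interval of shRNA1 lay wholly below that of the control for 6 members (ANLN, CDCA5, DLGAP5, TACC3, TOP2A and TPX2), beside 0.671% of tested genes. For 0 members did both hairpin intervals lie below it, beside 0.221%, ANLN coming nearest with an upper bound of 41.4 FPKM with shRNA2 and a lower bound of 40.3 FPKM in the control.

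**Figure D1:**
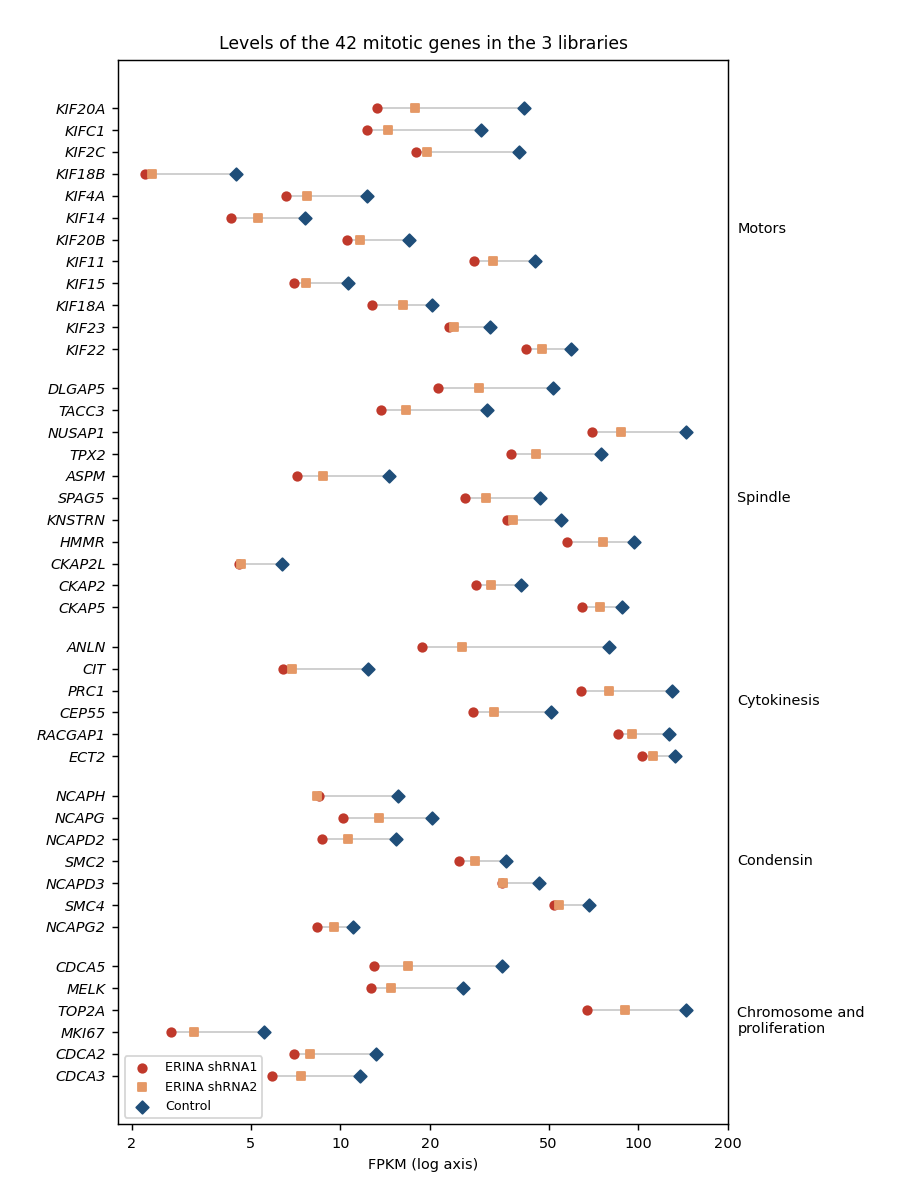
FPKM of each of the 42 genes (log axis) with shRNA1 (circles), with shRNA2 (squares) and in the control (diamonds), grouped by role and ordered within a role from the largest to the smallest difference. In each row both knockdown points lie left of the control, by most for ANLN (18.9 and 25.7 against 79.9 FPKM) and by least for NCAPG2 (8.37 and 9.55 against 11.0 FPKM).

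The stretches just before the transcription starts are shown because the members moved together and because the CHR has been described at many of them. RefSeq start windows, 250 bases before to 50 after each start, were matched by symbol for 39 members (GRCh38.p14); TPX2, RACGAP1 and CDCA2 had none. For each role group, the members with the largest and the smallest difference among those with 1 window are given from 100 bases before the start to 20 after it, written 5′ to 3′ on the gene's strand. Capitals mark the CHR core, TTTGAA or TTCGAA, and the CCAAT box, on either strand, so that TTCAAA and ATTGG are the same words read on the other strand.
KIF20A, motor, chr5:138179012-138179131, plus strand: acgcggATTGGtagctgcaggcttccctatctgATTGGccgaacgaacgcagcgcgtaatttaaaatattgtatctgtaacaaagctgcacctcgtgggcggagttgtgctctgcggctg
KIF23, motor, chr15:69414249-69414368, plus strand: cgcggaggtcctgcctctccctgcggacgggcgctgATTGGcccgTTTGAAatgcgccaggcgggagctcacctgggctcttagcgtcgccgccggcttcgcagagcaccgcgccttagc
DLGAP5, spindle, chr14:55191566-55191685, minus strand: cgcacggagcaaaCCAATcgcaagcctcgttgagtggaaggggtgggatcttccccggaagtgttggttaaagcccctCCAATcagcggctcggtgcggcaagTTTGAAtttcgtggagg
CKAP5, spindle, chr11:46846261-46846380, minus strand: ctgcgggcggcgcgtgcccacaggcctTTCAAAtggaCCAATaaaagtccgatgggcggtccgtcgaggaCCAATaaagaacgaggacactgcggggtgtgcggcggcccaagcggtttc
ANLN, cytokinesis, chr7:36389762-36389881, plus strand: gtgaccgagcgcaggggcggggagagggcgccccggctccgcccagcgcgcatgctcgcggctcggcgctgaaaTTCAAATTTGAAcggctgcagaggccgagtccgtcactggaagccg
CEP55, cytokinesis, chr10:93496512-93496631, plus strand: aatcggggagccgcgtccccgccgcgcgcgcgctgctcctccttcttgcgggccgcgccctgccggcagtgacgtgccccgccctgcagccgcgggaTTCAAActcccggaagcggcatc
NCAPH, condensin, chr2:96335666-96335785, plus strand: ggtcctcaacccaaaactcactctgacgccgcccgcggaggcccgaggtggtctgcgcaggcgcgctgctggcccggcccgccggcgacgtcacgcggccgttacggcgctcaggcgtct
NCAPG2, condensin, chr7:158704785-158704904, minus strand: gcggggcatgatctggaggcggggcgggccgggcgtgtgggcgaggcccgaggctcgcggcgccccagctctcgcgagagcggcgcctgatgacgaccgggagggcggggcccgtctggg
CDCA5, chromosome, chr11:65084021-65084140, minus strand: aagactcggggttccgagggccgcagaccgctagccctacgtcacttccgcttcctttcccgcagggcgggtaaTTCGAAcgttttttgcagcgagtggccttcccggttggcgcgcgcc
CDCA3, proliferation, chr12:6851267-6851386, minus strand: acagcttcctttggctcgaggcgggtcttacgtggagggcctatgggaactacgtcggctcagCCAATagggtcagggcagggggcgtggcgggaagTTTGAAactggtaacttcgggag

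In the whole windows, 32 of the 39 members (82.1%) held a CHR core on either strand, against 15.1% of the 8972 tested protein-coding genes with a window and 19.5% of all 27305 genes with a window. A CCAAT box was in 26 members (66.7%), against 43.8% of the tested protein-coding genes, and both words were in 24 members (61.5%), against 8.27%. Any of the 4 E2F-type words TTTCCCGC, TTTGGCGC, TTTCGCGC and TTTGCCGC was in 4 members (10.3%), against 6.85%. In ANLN, the gene with the largest difference of all members, a TTCAAA and a TTTGAA stand end to end. CHR cores also stand end to end in HMMR and KIF20B, whose log2 changes were only -0.54 and -0.60. KIF20A, at -1.40, held a CCAAT box but no CHR core. Whether the words bear on the size of the change was not tested. Neither CHR core nor CCAAT box was found for KIF2C, TACC3, KNSTRN, CKAP2 and MELK, and their median change was -0.89, beside -0.68 for the 32 members with a CHR core. Over the tested protein-coding genes the 1355 with a CHR core had a median change of -0.02 and the 4429 with neither word one of -0.0084. A match shows only that the letters are there, and the RefSeq start may not be the one used in T47D.

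**Figure D2:**
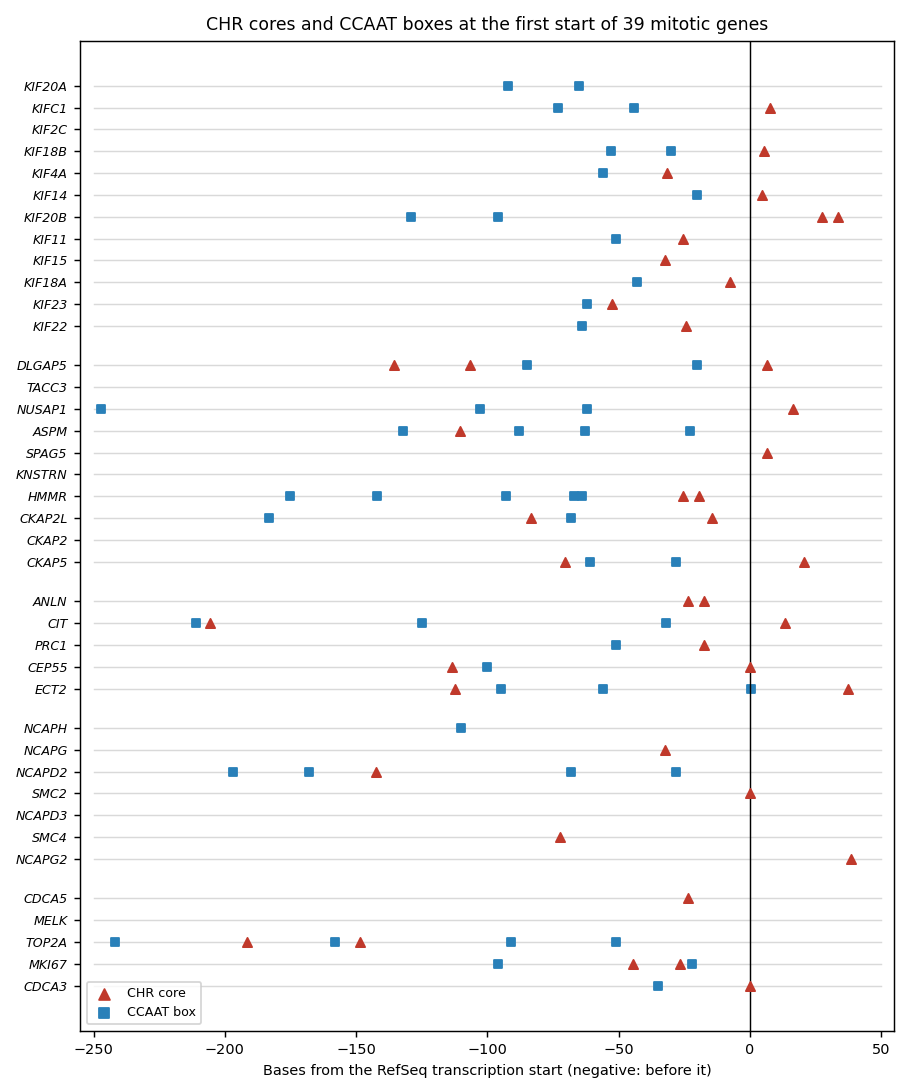
Position of each CHR core (triangles) and CCAAT box (squares), on either strand, in bases from the transcription start, at the first listed RefSeq start of 39 members grouped by role. In 27 of the 39 members (69.2%) a CHR core lies between -60 and 40, counting every listed start. The core of NCAPD3 is at another listed start and is not drawn. The zone was chosen after the positions were seen and holds such a word in 6.14% of all genes with a window, counted in the same way.

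Among the motors, each of the 12 was lower with both hairpins, with a median change of -0.61. KIF20A (ENSG00000112984, chr5:138178719-138187715), which carries the chromosomal passenger complex to the central spindle, was at 13.2 and 17.8 FPKM with shRNA1 and shRNA2, against 41.3 FPKM in the control. The knockdown libraries held 32.0% and 43.2% of the control level, a log2 change of -1.40 (SE 0.20; limma adjusted p 0.0831). Parts of its exons lie opposite BRD8 and CDC23, and 3.34% and 1.72% of its exon bases are shared. KIFC1, a minus-end-directed motor that clusters centrosomes, was at 12.3 and 14.5 FPKM with shRNA1 and shRNA2, against 29.6 FPKM in the control. KIF2C, which removes tubulin from microtubule ends at centromeres, was at 18.002 and 19.6 FPKM, against 39.7 FPKM in the control. The 2 hairpins lay close together for KIF2C and its unadjusted limma p was the lowest of the members, 0.000591, although its deposited interval starts at 0 FPKM in each library.

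The other motors differed less. KIF18B, a motor of astral microtubule ends, was the lowest member in level, at 2.22 and 2.33 FPKM with shRNA1 and shRNA2 and 4.48 FPKM in the control. Its relative KIF18A, which damps chromosome oscillations at the metaphase plate, was at 12.8 and 16.2 FPKM, against 20.3 FPKM in the control, and the ratio of KIF18A to KIF18B was 5.78 and 6.96 with the hairpins, against 4.53 in the control. The chromokinesin KIF4A, which works with PRC1 at the midzone, was at 6.56 and 7.75 FPKM with the hairpins and at 12.3 FPKM in the control. Its near-copy KIF4B was at 0.0200, 0.0457 and 0.0476 FPKM, so little signal sat at the copy. KIF14, which binds citron kinase at the midbody, was at 4.28 and 5.30 FPKM with the hairpins, against 7.63 FPKM in the control. KIF20B, a motor of late cytokinesis, was at 10.5 and 11.7 FPKM, against 17.05 FPKM in the control.

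KIF11, KIF15 and KIF22 were among the least different motors, with log2 changes of -0.56, -0.51 and -0.41. KIF18A (-0.48) and KIF23 (-0.43) lay in the same range, whereas the chromokinesin KIF4A was at -0.75. KIF11, the tetrameric motor that slides antiparallel microtubules apart, was at 28.2 and 32.6 FPKM with shRNA1 and shRNA2, against 45.1 FPKM in the control. KIF15, which can share that work, was at 7.01 and 7.67 FPKM, against 10.6 FPKM in the control. The chromokinesin KIF22 was at 41.96 and 47.4 FPKM with the hairpins and at 59.6 FPKM in the control, the highest control level of the motors. For KIF22, 13.01% of exon bases lie opposite an antisense gene, and whether reads were counted by strand is not given in the sources used here.

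Of the non-mitotic kinesins and kinesin light chains listed for comparison, 20 of 32 were tested. In that list 11 were lower and 7 higher with both hairpins, with a median change of -0.08, and limma over all genes passed 0. Of all tested genes, 42.6% were lower with both. On protein-coding genes alone limma passed 0 lower and 1 higher, where 11.3% and 7.11% of those genes passed. The largest differences were KIF13B, a transport motor (3.49 and 4.90 FPKM with shRNA1 and shRNA2, 6.88 FPKM in the control), and KIF24, a motor that acts at the mother centriole (1.18 and 1.40 FPKM, against 1.70 FPKM in the control). In the other direction were KIF1C, a transport motor, at 59.9 and 49.1 FPKM with the hairpins and 38.002 FPKM in the control, and KIF9, a motor of motile cilia, at 6.74 and 7.10 FPKM, against 5.58 FPKM in the control. Of the transport motors, KIF5B (-0.13), KIF3A (-0.15) and KIF3B (0.09) stood near 0 in log2 change. They were closer to it than any mitotic motor, the nearest of which was KIF22 at -0.41. The transport motors KIF13B (-0.67) and KIF1C (0.51) were farther from 0 than KIF22.

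Spindle proteins had a median change of -0.71 over 11 members. DLGAP5, which stabilises the microtubule bundles that end at kinetochores, was at 21.3 and 29.1 FPKM with shRNA1 and shRNA2, against 51.6 FPKM in the control. TACC3, which with CKAP5 and clathrin ties those bundles together, was at 13.7 and 16.6 FPKM, against 31.1 FPKM in the control. CKAP5, a microtubule polymerase, was at 65.0 and 74.3 FPKM with the hairpins and at 88.5 FPKM in the control. These partners thus differed unequally, with log2 changes of -1.02 (SE 0.15) for TACC3 and -0.35 (SE 0.12) for CKAP5, and the ratio of TACC3 to CKAP5 was 0.211 and 0.223 with the hairpins, against 0.351 in the control.

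TPX2, which activates Aurora A and nucleates microtubules around chromosomes, was at 37.5 and 45.5 FPKM with shRNA1 and shRNA2, against 75.1 FPKM in the control. NUSAP1, which bundles microtubules near chromatin, was at 70.05 and 87.6 FPKM with the hairpins, against 145 FPKM in the control, the highest control level of all members, and 62.2% of its exon bases are shared with another gene on the same strand. That share makes the division of its reads uncertain. ASPM, a protein of microtubule minus ends at spindle poles, was at 7.18 and 8.75 FPKM with the hairpins, against 14.6 FPKM in the control. SPAG5 and KNSTRN, the astrin and kinastrin subunits of a complex at attached kinetochores, were both lower. SPAG5 was at 26.2 and 30.8 FPKM with the hairpins and 46.8 FPKM in the control, with each deposited interval starting at 0. KNSTRN was at 36.3 and 38.1 FPKM, against 55.2 FPKM in the control.

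The other 3 spindle members lay near the lower end of the range of differences, apart from CKAP5. HMMR, a spindle pole protein also known as a hyaluronan receptor, was at 57.7 and 76.1 FPKM with shRNA1 and shRNA2, against 96.4 FPKM in the control. The hairpins were far apart for HMMR, with 59.8% and 78.9% of the control level. CKAP2 and CKAP2L are related microtubule-associated proteins. CKAP2 was at 28.6 and 31.9 FPKM with the hairpins and at 40.4 FPKM in the control, and CKAP2L at 4.58 and 4.65 FPKM, against 6.37 FPKM in the control.

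Of 27 further spindle genes outside the members, 26 were tested, 20 were lower and 4 higher with both hairpins, and their median change was -0.36. Of all tested genes, 42.6% were lower with both. Limma over all genes passed 0 of the 26 and limma on protein-coding genes alone 8, all lower, where 11.3% of the protein-coding genes passed lower. The largest differences were those of TUBGCP4 and TUBGCP2, subunits of the gamma-tubulin ring complex, which seeds microtubules; of its 5 tested subunits 4 were lower with both hairpins, and the changes ran from -0.78 to 0.01. TUBGCP4 was at 2.71 and 3.81 FPKM with shRNA1 and shRNA2, against 5.87 FPKM in the control, and TUBGCP2 at 8.49 and 8.96 FPKM, against 15.0 FPKM in the control. On the other side stood CLIP1, a plus-end tracking protein (26.1 and 23.6 FPKM, against 19.0 FPKM in the control), and HAUS6 of the augmin complex, which branches microtubules (6.61 and 6.84 FPKM, against 5.30 FPKM in the control). HAUS6 was the exception among the augmin subunits, as the other 7 of the 8 tested were lower with both hairpins, down to -0.59 on the log2 scale.

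Cytokinesis proteins had a median change of -0.80 over 6 members, and the widest range of any role group. ANLN (ENSG00000011426, chr7:36389806-36453791), the scaffold that links actin, septins and RhoA in the contractile ring, was at 18.9 FPKM with shRNA1 (deposited interval 7.50 to 30.2) and 25.7 FPKM with shRNA2 (10.1 to 41.4), against 79.9 FPKM in the control (40.3 to 119.5). The knockdown libraries held 23.6% and 32.2% of the control level, and the log2 change of -1.84 (SE 0.21) was the 54th lowest of the 13112 tested genes. In limma its adjusted p was 0.0829 over all genes and 0.00325 on protein-coding genes alone.

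The RhoA switch around ANLN differed far less. ECT2, the exchange factor that activates RhoA at the equator, was at 103 and 112 FPKM with shRNA1 and shRNA2, against 133 FPKM in the control. RACGAP1 and KIF23 form centralspindlin, the complex that brings ECT2 to the midzone. RACGAP1 was at 85.7 and 95.6 FPKM with the hairpins and at 127 FPKM in the control. KIF23, its motor subunit, was at 23.2 and 24.1 FPKM, against 31.9 FPKM in the control. The ratio of KIF23 to RACGAP1 was 0.271 and 0.252 with the hairpins, against 0.251 in the control, whereas the ratio of ANLN to RACGAP1 was 0.220 and 0.269, against 0.628 in the control.

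PRC1, which crosslinks antiparallel microtubules of the midzone, was at 64.4 and 79.5 FPKM with shRNA1 and shRNA2, against 129 FPKM in the control, and 57.6% of its exon bases are shared with another gene on the same strand. Its ratio to its motor partner KIF4A was 9.83 and 10.3 with the hairpins and 10.5 in the control. CIT, citron kinase of the midbody, was at 6.41 and 6.87 FPKM with the hairpins, against 12.4 FPKM in the control. CEP55, which recruits the membrane-cutting ESCRT proteins to the midbody, was at 27.9 and 32.8 FPKM, against 51.0 FPKM in the control. For CIT and CEP55 the hairpins lay at 51.7% to 64.2% of the control level.

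The ESCRT, septin and actomyosin genes that act after or beside them did not share the direction. All 24 genes of that list were tested, 9 were lower and 10 higher with both hairpins, and the median change was 0.01. Of all tested genes, 42.6% were lower with both. Limma passed 0 of the list over all genes, and on protein-coding genes alone 1 lower and 1 higher, where 11.3% and 7.11% of those genes passed. SEPT7, a core septin and an ANLN partner, was at 117 and 158 FPKM with shRNA1 and shRNA2, against 261 FPKM in the control, and CHMP6, an ESCRT-III subunit, at 8.95 and 10.9 FPKM, against 12.6 FPKM in the control. The ESCRT-III subunit CHMP4A was at 33.3 and 29.3 FPKM with the hairpins and 21.0 FPKM in the control, and the ATPase VPS4A, which takes ESCRT-III apart, at 20.8 and 20.5 FPKM, against 17.5 FPKM in the control.

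**Figure D3:**
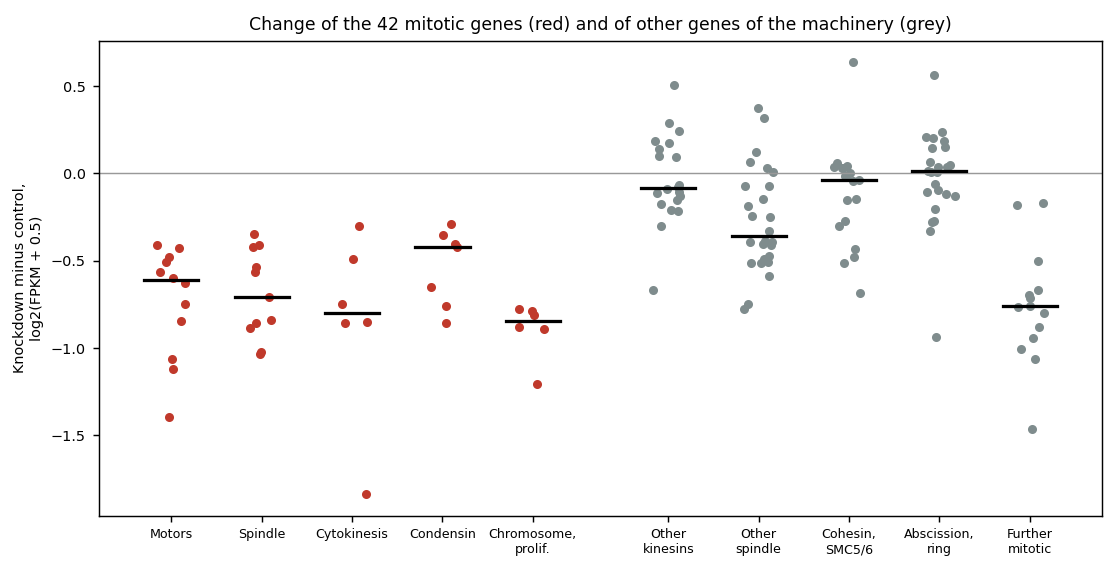
Change on the log2(FPKM + 0.5) scale, mean of both knockdown libraries minus the control, for each member by role (red) and for tested genes of 5 comparison lists (grey), with the median of each as a bar. The red medians lie between -0.85 and -0.42, and the grey ones at -0.08 for other kinesins, -0.36 for other spindle genes, -0.04 for cohesin, SMC5/6 and related genes, 0.01 for abscission and ring genes and -0.76 for further genes of mitotic cells.

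Condensin subunits had the smallest median change of the role groups, -0.42 over 7 members, and it split by complex. NCAPH, the kleisin that closes the condensin I ring, was at 8.46 and 8.37 FPKM with shRNA1 and shRNA2, against 15.6 FPKM in the control. NCAPG, a HEAT-repeat subunit of condensin I, was at 10.2 and 13.5 FPKM, against 20.3 FPKM in the control. NCAPD2, the other one, was at 8.72 and 10.7 FPKM with the hairpins and 15.4 FPKM in the control. Its deposited intervals were wide, at 0 to 19.5 and 0 to 23.7 with the hairpins and 0.305 to 30.5 in the control. These 3 subunits, which condensin I does not share, had a median change of -0.76. For NCAPG, 33.1% of exon bases lie opposite LCORL, which was at 8.76 and 10.2 FPKM with the hairpins and 9.32 FPKM in the control.

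The subunits of condensin II and the shared ATPases differed less. SMC2 was at 25.1 and 28.4 FPKM with shRNA1 and shRNA2, against 35.95 FPKM in the control, and SMC4 at 52.1 and 54.3 FPKM, against 68.2 FPKM in the control. SMC4 shares 18.5% of its exon bases with TRIM59 and 7.18% with IFT80, both on the other strand. NCAPD3 was at 34.8 and 35.1 FPKM with the hairpins, against 46.4 FPKM in the control. NCAPG2 was at 8.37 and 9.55 FPKM, against 11.0 FPKM in the control. NCAPH2, the kleisin of condensin II and no member, was at 23.98 and 18.1 FPKM with the hairpins and at 21.0 FPKM in the control, above it with shRNA1 and below it with shRNA2. With NCAPH2 included, the 3 subunits of condensin II had a median change of -0.29, and the ratio of NCAPH to NCAPH2 was 0.353 and 0.463 with the hairpins, against 0.744 in the control. The difference between the complexes rests on 3 genes each and was not tested.

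**Figure D4:**
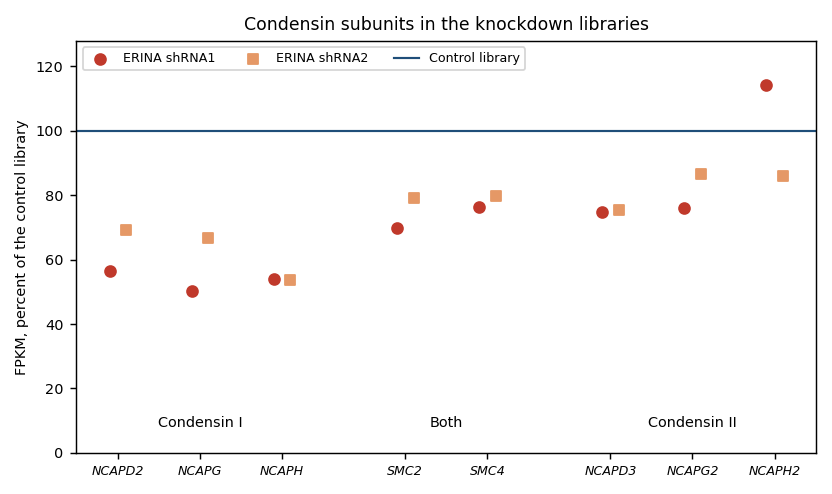
FPKM of each condensin subunit as a percentage of the control library (line at 100%), with shRNA1 (circles) and shRNA2 (squares), for subunits of condensin I, of both complexes and of condensin II. NCAPD2, NCAPG and NCAPH lie between 50.4% and 69.1%, SMC2, SMC4, NCAPD3 and NCAPG2 between 69.7% and 86.6%, and NCAPH2 on either side of the line.

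Of 19 cohesin, SMC5/6 and related genes, 10 were lower, 3 higher and 6 mixed between the hairpins, with a median change of -0.04. Of the 13112 tested genes, 5591 were lower and 5558 higher with both hairpins. Limma passed 0 of the 19 over all genes, and 2 lower and 1 higher on protein-coding genes alone, where 11.3% and 7.11% of those genes passed. RAD21, the cohesin kleisin, was at 58.2 and 64.8 FPKM with shRNA1 and shRNA2, against 98.9 FPKM in the control, and SMC5 at 4.20 and 5.195 FPKM, against 6.87 FPKM in the control. NSMCE1, a subunit of the SMC5/6 complex, was at 76.8 and 71.1 FPKM with the hairpins and 47.4 FPKM in the control. The cohesin subunit STAG1 was at 12.3 FPKM with both hairpins, against 11.8 FPKM in the control.

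The remaining members had the deepest median of the role groups, -0.85 over 6 genes. CDCA5, or sororin, which protects cohesin until anaphase, was at 12.95 and 16.9 FPKM with shRNA1 and shRNA2, against 34.8 FPKM in the control. TOP2A, the topoisomerase that untangles sister chromatids, was at 67.4 and 90.1 FPKM, against 144 FPKM in the control. Its ratio to TOP2B, the form also made in resting cells, was 1.74 and 2.11 with the hairpins, against 2.86 in the control. MKI67, whose Ki-67 protein coats mitotic chromosomes and is scored in breast tumours, was at 2.71 and 3.24 FPKM with the hairpins and 5.57 FPKM in the control. CDCA2, which brings protein phosphatase 1 to chromatin at mitotic exit, was at 6.97 and 7.91 FPKM, against 13.2 FPKM in the control. CDCA3, a protein that promotes entry into mitosis, was at 5.90 and 7.38 FPKM with the hairpins, against 11.6 FPKM in the control. MELK, a kinase of proliferating cells, was at 12.7 and 14.7 FPKM, against 25.7 FPKM in the control. Over all genes limma passed 0 of these 6, at Benjamini-Hochberg adjusted p of 0.0837 to 0.101. All 6 passed limma lower on protein-coding genes alone, at Benjamini-Hochberg adjusted p of 0.00625 to 0.0244, where 11.3% of those genes passed lower.

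Of 14 further genes of mitotic cells, all 14 were lower with both hairpins, beside 42.6% of all tested genes, with a median change of -0.76. This list, like the members, was chosen with earlier results of these data known, so it is no independent check. Limma passed 0 over all genes and 11 lower on protein-coding genes alone, where 11.3% of those genes passed lower. DEPDC1 was at 6.73 and 8.39 FPKM with shRNA1 and shRNA2, against 21.6 FPKM in the control, and TROAP, or tastin, at 24.7 and 27.4 FPKM, against 54.8 FPKM in the control.

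The hairpins ordered the members almost without exception. The level was lower with shRNA1 than with shRNA2 for 41 of the 42 members, where 52.2% of all tested genes were, with a median gap of -0.22 on the log2 scale, beside -0.0089 over all tested genes. NCAPH was the exception, at 8.46 FPKM with shRNA1 and 8.37 FPKM with shRNA2. The gap was widest for DLGAP5 (-0.44), ANLN (-0.44), KIF20A (-0.42), TOP2A (-0.42) and HMMR (-0.40), and under 0.02 in size for NCAPD3, NCAPH and CKAP2L. ERINA itself was lower with shRNA1 than with shRNA2, and with 1 library for each hairpin this order has no replicate check. In the comparison lists, the level was lower with shRNA1 than with shRNA2 for 14 of 14 further mitotic genes, 15 of 19 cohesin, SMC5/6 and related genes, 17 of 24 abscission and ring genes, 15 of 26 other spindle genes and 8 of 20 other kinesins.

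**Figure D5:**
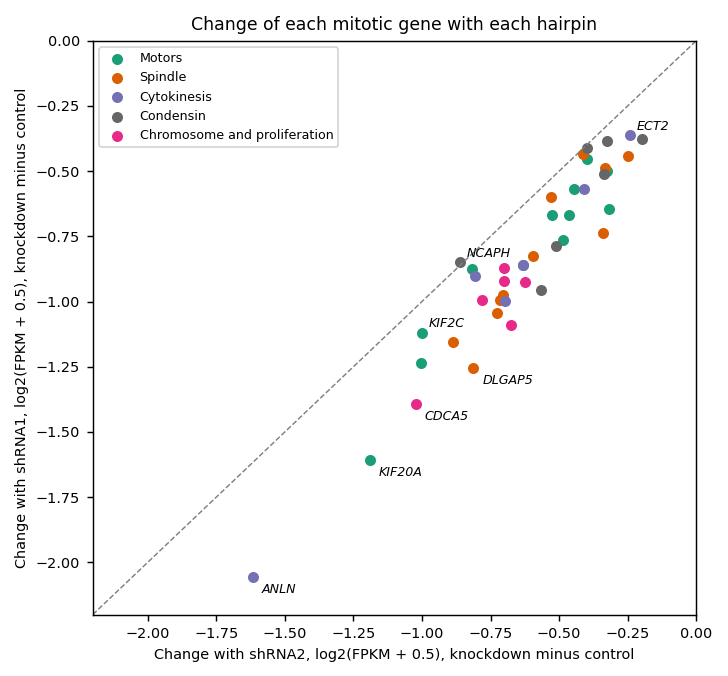
Change of each member with shRNA1 (vertical axis) against its change with shRNA2 (horizontal axis), both on the log2(FPKM + 0.5) scale against the same control library, coloured by role, with the line of equal change dashed. All points but NCAPH lie below the line, ANLN lies at -2.06 with shRNA1 and -1.62 with shRNA2, and since both axes share the control library the slope of the cloud is not a result.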

How the data were processed

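RNA from 3 T47D libraries was measured by RNA sequencing. The authors deposited FPKM for 58039 genes with a lower and an upper bound of each FPKM and a status, per the file headers; how wide an interval the bounds span, and any filter or scaling, is not stated there. The submitters' processing notes name STAR, RSEM and GRCh38, with no role. Gene types, positions and exon overlaps came from GENCODE release 29 (GRCh38), which held 57435 of the genes, and start windows from RefSeq (GRCh38.p14). Both knockdown libraries were compared with the control by limma 3.58.1 in R 4.3.3 (lmFit, eBayes with a trend) on log2(FPKM + 0.5), a scale that understates changes of low genes, over the 13112 genes whose mean FPKM reached 1, with Benjamini-Hochberg adjustment over all genes and a threshold of 0.05. The fit has 1 residual degree of freedom. Lists are described by counts and medians. Alternatives were pseudocounts of 0.1 and 1, a minimum of 5 FPKM or none, the same total, protein-coding genes alone, limma without the trend or with its robust option, and each hairpin alone. Depth was estimated from genes with 1 transcript of at least 3000 bases whose lower bound is 0 and whose upper bound is about 3 times the FPKM, at the commonest such ratio in each library, taken as the mark of a single fragment. No library copied another, with 0 equal nonzero values in each pair. Members and lists were chosen with earlier results of these data known. In the comparison lists, the genes named are the 2 with the largest difference in each direction shared by both hairpins. KIF5B, KIF3A, KIF3B, NCAPH2, TOP2B and the untested KIF6 are named outside this rule. Tables and plots used Python 3.11.15, pandas 2.3.3, numpy 2.4.6 and matplotlib 3.10.9.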

Additional observations from a re-analysis of the deposited data

How the results depend on the processing

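All 42 members stayed lower under every alternative, 40 of 40 at a mean FPKM of at least 5. This is no independent check, as both hairpin levels were already below the control for each member. The filters, gene set, trend and robust option leave each change as it is, and the same total lowers those of the members. Members called lower by limma (Benjamini-Hochberg) numbered 0, but 36 with protein-coding genes alone, 19 with the robust option and 2 with the same total, where 11.3%, 4.54% and 0.847% of the genes tested were; 0 were called higher under each. Genes of the 5 comparison lists called lower numbered 0, but 22, 9 and 2 under these, and called higher 0, but 3, 1 and 0. The cause was not tested. At the same total the all-gene median is -0.12 for shRNA1 and -0.03 for shRNA2. Without a hairpin there is no test, and the median of the members was -0.61 to -0.85, of motors -0.51 to -0.72, spindle -0.60 to -0.82, cytokinesis -0.67 to -0.88, condensin -0.40 to -0.51 and the others -0.70 to -0.96. No paired analysis was possible because the control has 1 library. The deposited bounds limit single genes.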

Other observations

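KIF6, a kinesin below the limit for testing and named after its values were seen, was at 1.30 and 1.03 FPKM with shRNA1 and shRNA2, against 0.286 FPKM in the control.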
